A study of Mus musculus with 6 samples.

Results

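The BCL2 family decides whether the outer membrane of mitochondria stays closed, and 10 of its genes were followed among the 54532 genes of the count table. They were chosen by name: the pro-survival genes Bcl2, Bcl2l1, Mcl1, Bcl2a1b and Bcl2a1d, and the pro-death genes Bax, Bak1, Bcl2l11, Bid and Bbc3. All 10 passed the filter on low counts, which left 13175 genes to test. RNA sequencing was done on bone-marrow-derived macrophages, phagocytes grown from mouse marrow, from mice with the genotype labels Tet2 knockout (3 libraries) and wild-type (3 libraries). Both groups had received monosodium urate (MSU), the crystal of gout, so the comparison concerns the genotype label within treated cells, and untreated cells were not analysed here. The knockout allele, the mouse age and strain, the dose and duration of MSU, and whether each library stands for a mouse of its own are not given in the sources used here. Each p-value therefore rests on how far these 3 libraries per group spread, a spread that may be technical.

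Pro-survival BCL2 proteins hold the pore-forming proteins BAX and BAK in check. Proteins that carry only the BH3 segment, among them BIM (the product of Bcl2l11), BID and PUMA (the product of Bbc3), bind the pro-survival proteins or activate the pore formers, after which cytochrome c leaves the mitochondrion and caspases are switched on. MCL1 and the A1 proteins of the Bcl2a1 genes are pro-survival proteins, the A1 proteins being induced by inflammatory signals. Whether the macrophages used here depend on any of them was not tested. Protein activity and binding decide the outcome as much as mRNA does, and only mRNA was measured.

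Total counts ran from 13425170 to 14481843 in knockout-labelled libraries and from 11997104 to 13881435 in wild-type-labelled ones. Wild-type replicate 2 had the lowest total and stood furthest from its group, with pairwise counts varying by up to 2.32 times the sampling noise, against at most 1.71 times for every other pair within a group. Tet2, read as a check of the labels, stood at 33.7 ± 0.80 CPM (read counts scaled to a common library total) in knockout-labelled libraries and 29.3 ± 1.41 CPM in wild-type-labelled ones (SD, n = 3 each), so it was not lower (log2 change 0.20, SE 0.07; edgeR adjusted p = 0.0159). The knockout allele is not given, so a count over the whole gene cannot decide whether the labels hold. Groups are therefore named by their labels throughout. All 10 macrophage markers passed the filter (4 higher, among them Adgre1, Mertk and Csf1r with log2 changes of 0.78, 0.65 and 0.55, and 4 lower, among them Lyz2 at -0.47), with summed levels of 7234 to 7500 CPM (labelled knockout) and 7063 to 7463 CPM (labelled wild-type). Fibroblast and stromal markers were also high, all 7 passing the filter (1 higher, 3 lower), with summed levels of 6519 to 6680 CPM in knockout-labelled libraries and 6782 to 7257 CPM in wild-type-labelled ones, of which Col1a1 alone took 3195 ± 44.0 CPM (labelled knockout) and 3452 ± 163 CPM (labelled wild-type; SD, n = 3 each). The granulocyte list summed to 32.3 to 36.9 CPM (labelled knockout) and 25.1 to 29.1 CPM (labelled wild-type), most of it Csf3r, with the defining neutrophil genes Ly6g and Retnlg at 0 in all 6 libraries. T and NK cell markers summed to 11.1 to 12.6 CPM (labelled knockout) and 3.3 to 4.17 CPM (labelled wild-type), most of it Cd4, with Cd3d and Cd3g at 0. Dendritic cell markers summed to 5.40 to 6.68 CPM (labelled knockout) and 3.27 to 4.82 CPM (labelled wild-type). B cell markers reached at most 1.61 CPM, and those of mast cells and basophils at most 0.497 CPM. Mitochondrial genes took 0.349% to 0.366% of counts in knockout-labelled libraries and 0.240% to 0.275% in wild-type-labelled ones. The part of other cell types and of the mitochondrial share in the values below was not tested. In bulk RNA, fewer cells of one type and less RNA per cell cannot be told apart.

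Among the 10 members, 4 rose and 1 fell in knockout-labelled libraries. The risers were Bcl2l11, Bid, Bak1 and Bcl2l1, so 3 of 5 pro-death members and 1 of 5 pro-survival members rose. The fall was in Bcl2a1b, a pro-survival member. Across all genes tested, 40.9% passed the same threshold (an edgeR adjusted p of 0.05), 21.6% as higher and 19.2% as lower, so a count of 5 of 10 is close to the background. The libraries of the 2 groups did not overlap in 7 of the 10 members and in 47.8% of all genes tested. Changes were small: the median log2 change was 0.11 over the members (0.17 over the pro-death and 0.04 over the pro-survival members) and 0.00 over all genes tested. With signs dropped, the median log2 change over all genes tested was 0.169, so the members' changes were of common size. The calls rest on a small spread between libraries (biological coefficient of variation 0.0263). If 0.1 was assumed in its place, Bcl2l11 alone of the 10 was called, beside 1885 genes in all.

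**Figure D1:**
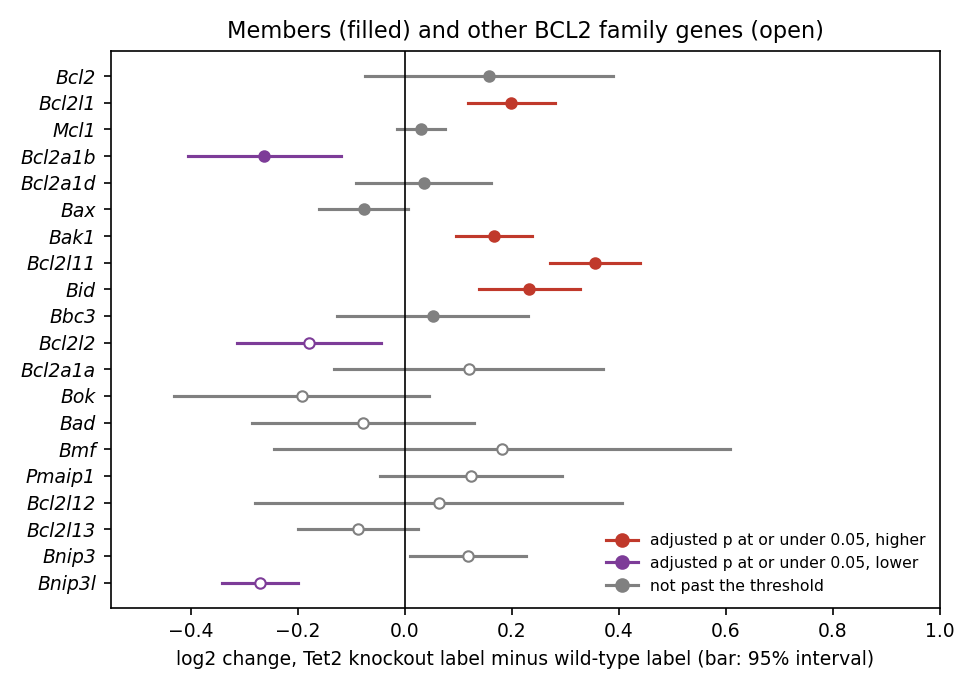
Log2 change of each gene, libraries labelled Tet2 knockout minus libraries labelled wild-type, as a point with its 95% interval (n = 3 libraries each). Filled points are the 10 members, open points the other BCL2 family genes tested, and grey ones did not pass. Bcl2l11 stands furthest to the right among the called genes, and Bcl2a1b and Bnip3l lie to the left of 0.

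Levels between genes were compared as CPM per kilobase of exon. Mcl1 was the highest member in every library, at 353 ± 3.18 CPM per kilobase in knockout-labelled libraries and 345 ± 5.11 in wild-type-labelled ones (SD, n = 3 each). In knockout-labelled libraries it was followed by Bak1 (64.1 ± 1.11), Bax (62.8 ± 0.75), Bcl2a1d (53.4 ± 1.63), Bcl2a1b (35.7 ± 1.41), Bcl2l1 (25.1 ± 0.55), Bid (21.6 ± 0.49), Bcl2l11 (13.2 ± 0.38), Bbc3 (8.76 ± 0.69) and Bcl2 (1.18 ± 0.015). In wild-type-labelled libraries the same unit gave Bax 66.3 ± 3.98, Bak1 57.1 ± 1.23, Bcl2a1d 52.3 ± 7.20, Bcl2a1b 43.0 ± 5.50, Bcl2l1 21.9 ± 1.13, Bid 18.4 ± 0.38, Bcl2l11 10.3 ± 0.12, Bbc3 8.44 ± 0.30 and Bcl2 1.06 ± 0.065. Neighbours whose libraries overlapped were Bak1 and Bax in knockout-labelled libraries, and in wild-type-labelled ones Bak1 and Bcl2a1d, and Bcl2a1d and Bcl2a1b. The libraries of all other neighbours in these orders did not overlap. Bcl2, the gene that names the family, was thus the lowest member in both groups.

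**Figure D2:**
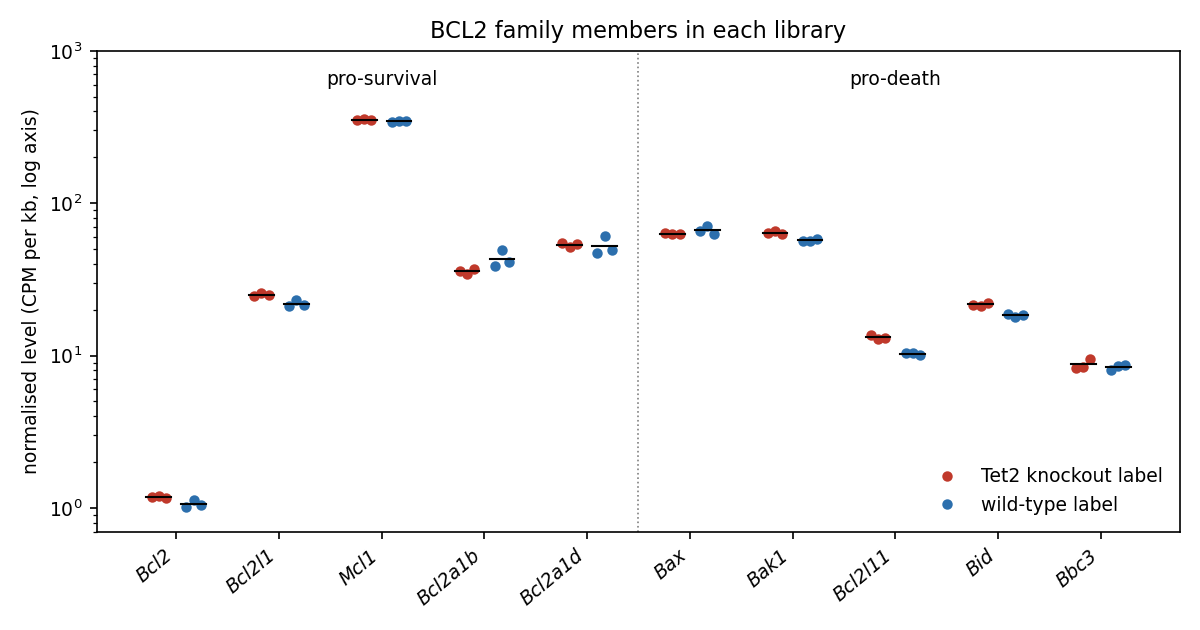
Normalised level of the 10 members in each library, in CPM per kilobase on a log axis, with libraries labelled Tet2 knockout left of those labelled wild-type. Each point is 1 library and each line the mean of 3. Mcl1 lies near 350 in all 6 libraries and Bcl2 near 1.

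Of the pro-survival members, Mcl1 (ENSMUSG00000038612, mm10 chromosome 3, 95658788 to 95663176, plus strand) encodes a short-lived protein that binds BIM, PUMA and BAK. It measured 1195, 1217 and 1205 CPM in knockout-labelled libraries, against 1160.1, 1191.5 and 1189 CPM in wild-type-labelled ones. All 3 libraries labelled knockout lay above the others, but by little: the log2 change was 0.03 (SE 0.02, 95% interval -0.01 to 0.08) and did not pass (edgeR adjusted p = 0.293). Bcl2l1 (ENSMUSG00000007659, chromosome 2, 152780668 to 152831728, minus strand) encodes BCL-XL, which holds BAX and BAK. Its levels were 112, 117 and 115 CPM in knockout-labelled libraries, against 96.7, 106 and 97.9 CPM in wild-type-labelled ones. The groups did not overlap, and Bcl2l1 rose by a log2 change of 0.20 (SE 0.04; edgeR adjusted p = 2.77e-05). Bcl2 (ENSMUSG00000057329, chromosome 1, 106538178 to 106714274, minus strand), the founding pro-survival gene, measured 10.9, 10.9 and 10.7 CPM in knockout-labelled libraries, against 9.24, 10.4 and 9.57 CPM in wild-type-labelled ones. At 126 to 155 reads per library its log2 change of 0.16 had an interval from -0.07 to 0.39 and did not pass (edgeR adjusted p = 0.295).

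The Bcl2a1 genes encode A1 proteins, which bind BH3-only proteins, and lie as near-identical copies on mouse chromosome 9. Bcl2a1b and Bcl2a1d differ at 6 of 519 coding bases (98.84% identical) and share a run of 217 bases without a difference, and a read within such a run could have come from either copy. The first 120 coding bases hold 7 of the 12 positions at which the copies differ, and are shown because the split of reads between copies rests on such positions. They come from GENCODE M21 transcripts, 5′ to 3′ (Bcl2a1b, chr9:89199360-89199479, plus strand; Bcl2a1d, chr9:88731600-88731719, minus strand; Bcl2a1a, chr9:88957051-88957170, plus strand; GRCm38), with the differing positions in capitals.
Bcl2a1b: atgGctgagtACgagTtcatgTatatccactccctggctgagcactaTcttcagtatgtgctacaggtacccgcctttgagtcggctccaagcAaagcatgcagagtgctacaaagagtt
Bcl2a1d: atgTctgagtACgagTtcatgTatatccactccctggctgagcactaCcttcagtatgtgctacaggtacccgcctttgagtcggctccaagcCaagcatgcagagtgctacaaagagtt
Bcl2a1a: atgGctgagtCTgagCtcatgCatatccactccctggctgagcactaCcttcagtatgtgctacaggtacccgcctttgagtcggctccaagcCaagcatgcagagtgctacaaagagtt

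Bcl2a1b (ENSMUSG00000089929, chromosome 9, 89199209 to 89207827, plus strand) measured 29.3, 27.9 and 30.2 CPM in knockout-labelled libraries, against 31.4, 40.1 and 33.8 CPM in wild-type-labelled ones. The groups did not overlap, and wild-type replicate 2 was highest. Bcl2a1b fell by 0.26 on the log2 scale (SE 0.07; edgeR adjusted p = 0.00172), but without wild-type replicate 2 the log2 change was -0.17 and no longer passed. Bcl2a1d (ENSMUSG00000099974, chromosome 9, 88723285 to 88731914, minus strand) measured 47.2, 44.5 and 46.5 CPM in knockout-labelled libraries, against 40.6, 52.2 and 42.6 CPM in wild-type-labelled ones. These groups overlapped, with wild-type replicate 2 again highest (log2 change 0.04, SE 0.06; edgeR adjusted p = 0.700).

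Added up, the reads of all Bcl2a1 genes came to 1227, 1153 and 1124 in knockout-labelled libraries and 1128, 1230 and 1175 in wild-type-labelled ones. Tested as 1 gene they gave a log2 change of -0.07 (SE 0.06; edgeR adjusted p = 0.430), so the call on Bcl2a1b was not one on the copies together. The split between copies was steady within groups. Bcl2a1b took 34.1%, 34.1% and 35.5% of these reads in knockout-labelled libraries, against 39.2%, 39.5% and 40% in wild-type-labelled ones. Bcl2a1d took 54.6 ± 0.26% in knockout-labelled libraries and 50.9 ± 0.55% in wild-type-labelled ones (SD, n = 3 each). Neither share overlapped between groups, wild-type replicate 2 included, and an exact permutation test of 3 against 3 libraries cannot go below p = 0.1. Both are shares of the same reads, so a lower share for Bcl2a1b goes with a higher one for the other copies together. The separations are thus not independent. Reads that match several copies may be dropped or assigned to one of them in counting. The part of this in the split, and in the levels and sums that include these copies, was not tested.

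**Figure D3:**
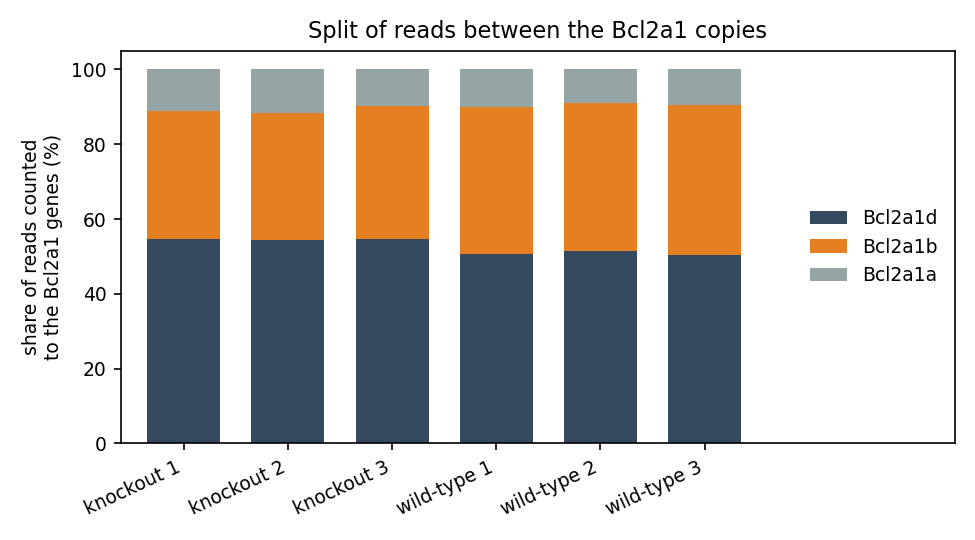
Share of the reads counted to the Bcl2a1 genes that went to each copy, in percent, 1 bar per library, with libraries labelled Tet2 knockout on the left. Bcl2a1b takes 34.1% to 35.5% of reads in the first 3 bars and 39.2% to 40% in the others.

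The stretches before the RefSeq starts of these copies also match closely, and are shown because Bcl2a1b was called and Bcl2a1d was not. Each holds an AP-1 motif (TGANTCA, which reads the same on both strands), in capitals, found in 7.81% of 32851 mouse start regions (250 bases before a start to 50 after). It begins 164 bases before the start for Bcl2a1b (chr9:89199079-89199168, plus strand), 114 for Bcl2a1d (chr9:88731905-88731994, minus strand) and 120 for Bcl2a1a (chr9:88956770-88956859, plus strand), in RefSeq on GRCm38.p6.
Bcl2a1b: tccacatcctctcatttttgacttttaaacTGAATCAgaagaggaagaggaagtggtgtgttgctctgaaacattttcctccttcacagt
Bcl2a1d: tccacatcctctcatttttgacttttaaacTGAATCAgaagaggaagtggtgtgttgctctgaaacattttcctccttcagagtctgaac
Bcl2a1a: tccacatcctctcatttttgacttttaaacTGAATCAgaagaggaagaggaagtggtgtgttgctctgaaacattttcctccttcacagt

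BAX and BAK are the proteins that open the mitochondrial membrane. Bak1 (ENSMUSG00000057789, chromosome 17, 27019810 to 27029009, minus strand) measured 154, 157 and 152 CPM in knockout-labelled libraries, against 136, 135 and 141 CPM in wild-type-labelled ones. The groups did not overlap, and Bak1 rose by a log2 change of 0.17 (SE 0.04; edgeR adjusted p = 6.37e-05). Bax (ENSMUSG00000003873, chromosome 7, 45461697 to 45466898, minus strand) measured 100.3, 98.2 and 98.3 CPM in knockout-labelled libraries, against 103, 111 and 99.1 CPM in wild-type-labelled ones. These groups overlapped, with a log2 change of -0.08 (SE 0.04, interval -0.16 to 0.01; edgeR adjusted p = 0.141). Without wild-type replicate 3 the log2 change of Bax was -0.12 and passed. Per kilobase, Bak1 stood at 1.01, 1.05 and 1.01 times Bax in knockout-labelled libraries and at 0.865, 0.796 and 0.931 times Bax in wild-type-labelled ones, without overlap. Bak1 shares 614 of its 2407 exonic bases with Ggnbp1 on the other strand, a gene with 46 reads in all 6 libraries together.

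Bax is known as a target of p53 in human cells, and the 250 bases before its RefSeq start (chr7:45466899-45467148, minus strand, GRCm38.p6) are shown with the 1 match to the p53 half-site in capitals, a motif found in 8.36% of the start regions.
Bax: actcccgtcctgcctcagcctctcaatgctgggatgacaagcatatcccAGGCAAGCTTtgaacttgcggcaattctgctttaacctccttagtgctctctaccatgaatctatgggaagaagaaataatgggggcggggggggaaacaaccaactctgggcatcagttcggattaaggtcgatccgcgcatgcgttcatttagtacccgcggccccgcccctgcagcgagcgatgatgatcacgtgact

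Of the 3 BH3-only members, 2 rose. Bcl2l11 (ENSMUSG00000027381, chromosome 2, 128126038 to 128162547, plus strand) encodes BIM, which binds all pro-survival proteins and can activate BAX and BAK directly. Its levels were 109, 103 and 105 CPM in knockout-labelled libraries, against 83.3, 82.8 and 81.5 CPM in wild-type-labelled ones. The lowest library of the first group lay well above the highest of the second, and Bcl2l11 rose by a log2 change of 0.36 (SE 0.04, interval 0.27 to 0.44; edgeR adjusted p = 6.14e-12). Bid (ENSMUSG00000004446, chromosome 6, 120891930 to 120916853, minus strand), whose protein carries the signal of death receptors to mitochondria once caspase-8 cuts it, measured 76.2, 75.4 and 78.7 CPM in knockout-labelled libraries, against 66.3, 63.7 and 65.7 CPM in wild-type-labelled ones. The groups did not overlap, and Bid rose by a log2 change of 0.23 (SE 0.05; edgeR adjusted p = 2.46e-05). Its annotation shares 628 of 3550 exonic bases with Bcl2l13 on the other strand, which did not pass (log2 change -0.09; edgeR adjusted p = 0.221), except with GC content and length trends removed (log2 change -0.14). No source used here says whether counting used strand, so reads of the shared bases cannot be told apart. Bbc3 (ENSMUSG00000002083, chromosome 7, 16308393 to 16318205, plus strand), which encodes the p53-induced protein PUMA, measured 17.5, 18.0 and 20.3 CPM in knockout-labelled libraries, against 17.2, 18.2 and 18.4 CPM in wild-type-labelled ones. These overlapped (log2 change 0.05, SE 0.09, interval -0.13 to 0.23; edgeR adjusted p = 0.688).

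Bcl2l11 is a known target of FOXO factors, and since it had the largest change of the 10, the 250 bases before the first RefSeq start (chr2:128125788-128126037, plus strand, GRCm38.p6) are shown with the FOXO motif (GTAAACA, searched on both strands) in capitals. It begins 227 bases before the start.
Bcl2l11: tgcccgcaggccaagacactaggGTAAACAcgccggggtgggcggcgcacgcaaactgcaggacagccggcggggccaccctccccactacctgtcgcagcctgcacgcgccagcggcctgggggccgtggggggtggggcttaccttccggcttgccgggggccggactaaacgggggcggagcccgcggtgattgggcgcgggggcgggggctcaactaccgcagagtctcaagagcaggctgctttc

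The 10 members have 15 RefSeq start regions. The FOXO motif was in 2 of them (Bcl2l11 and Bbc3) and in 3.65% of all start regions, the NF-kB motif in 2 (Bcl2l1 and Bbc3) and 4.51%, and AP-1 in 2 (Bcl2a1b and Bcl2a1d). No member region held the interferon-stimulated response element (3.44% of all) or the STAT motif TTCNNNGAA (8.3%), both searched on both strands. At Bbc3 the 2 motifs lay before different starts. No start region of a member held more than 1 kind of motif searched.

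The summed pro-death level was higher in every library labelled knockout than in any labelled wild-type. This sum holds Bcl2l11, Bid and Bak1, each called higher above, so it is not a result apart from those calls. Of single genes tested, 47.8% also had groups without overlap. The pro-death sum was 171, 170.07 and 170.25 CPM per kilobase in knockout-labelled libraries, against 159, 164 and 159 in wild-type-labelled ones. The pro-survival sum was 466, 468 and 469.7 CPM per kilobase in knockout-labelled libraries, against 447, 482 and 461 in wild-type-labelled ones. The pro-death sums did not overlap, whereas the pro-survival sums of the first group lay within the range of the second. The ratio of pro-survival to pro-death sums was 2.72, 2.75 and 2.76 in knockout-labelled libraries and 2.81, 2.95 and 2.90 in wild-type-labelled ones (log2 difference -0.07), without overlap. Mcl1 made up 75.4 ± 0.53% of the pro-survival sum in knockout-labelled libraries and 74.5 ± 2.0% in wild-type-labelled ones (SD, n = 3 each). Without Mcl1 the ratio was 0.676 ± 0.0134 (labelled knockout) and 0.736 ± 0.0733 (labelled wild-type), and there the groups overlapped.

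Within the pro-death sum, the BH3-only members came to 43.5 ± 1.17 CPM per kilobase in knockout-labelled libraries and 37.1 ± 0.27 in wild-type-labelled ones, and the pore formers to 127 ± 1.27 (labelled knockout) and 123 ± 3.07 (labelled wild-type; SD, n = 3 each). The pore-former sums overlapped, at 125.45 to 127.71 (labelled knockout) and 121.43 to 126.97 (labelled wild-type). Per kilobase, Bcl2l11 reached 3.73 ± 0.14% of the level of Mcl1 in knockout-labelled libraries and 2.98 ± 0.072% in wild-type-labelled ones. These shares depend on the division by length. In CPM, Bcl2l11 averaged 105.6 and Mcl1 1205.6 in knockout-labelled libraries, and 82.6 and 1180.3 in wild-type-labelled ones. Ratios over chosen members were not tested, and in CPM without division by length the log2 difference in balance was -0.12. With the other pro-survival and pro-death genes of the family added to the sums, that difference was -0.05. These are ratios of mRNA levels and not of proteins.

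**Figure D4:**
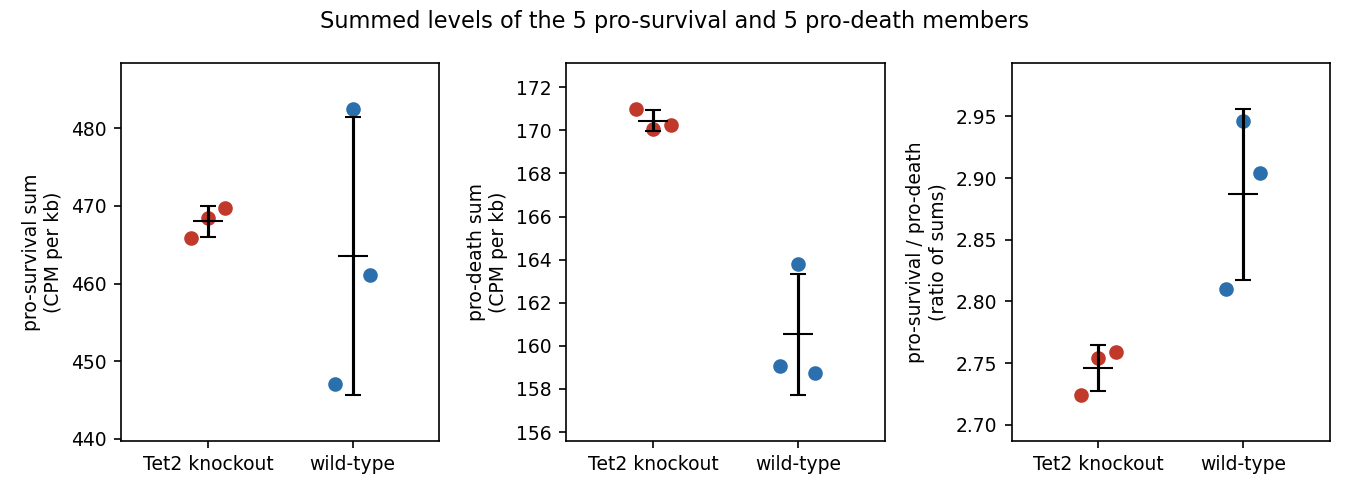
Summed levels of the 5 pro-survival members and of the 5 pro-death members in CPM per kilobase, and the ratio of these sums, with libraries labelled Tet2 knockout left of those labelled wild-type (points, libraries; bars, mean and SD, n = 3). The vertical axes do not start at 0. Pro-death sums lie at 170.07 to 171 on the left and 159 to 164 on the right, and the ratio at 2.72 to 2.76 on the left and 2.81 to 2.95 on the right.

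Of 16 other genes of the family 10 were tested, of which 0 rose and 2 fell (median log2 change -0.01). Over all genes tested, 40.9% were called in either direction. Bcl2l2, which encodes the pro-survival protein BCL-W, measured 35.4, 31.5 and 31.3 CPM in knockout-labelled libraries, against 38.0, 34.0 and 38.9 CPM in wild-type-labelled ones. The groups overlapped, and the call (log2 change -0.18, SE 0.07; edgeR adjusted p = 0.0267) was lost without any 1 of knockout replicates 2 and 3 and wild-type replicates 1 and 3, with log2 changes from -0.24 to -0.14 over the libraries left out. It was also lost with DESeq2 (log2 change -0.18). Bnip3l, known for the removal of mitochondria, fell to 140.3, 137 and 132 CPM in knockout-labelled libraries, against 164, 165 and 165 CPM in wild-type-labelled ones (log2 change -0.27; edgeR adjusted p = 2.35e-10). Its relative Bnip3 did not pass (log2 change 0.12), except without wild-type replicate 1 (0.16) and with GC content and length trends removed (0.14).

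Pro-death genes outside the members gave no call. Pmaip1, which encodes the BH3-only protein NOXA, averaged 21.3 ± 1.17 CPM in knockout-labelled libraries and 19.6 ± 1.59 CPM in wild-type-labelled ones (log2 change 0.12). Bad, a BH3-only gene governed by growth factor signals, averaged 28 ± 3.55 CPM in knockout-labelled libraries and 29.7 ± 4.75 CPM in wild-type-labelled ones (log2 change -0.08), and shares 524 of 2558 exonic bases with Gpr137. Gpr137 had 1709 reads in all 6 libraries together, against 2352 for Bad. Bok, a relative of the pore formers, averaged 9.52 ± 0.51 CPM (labelled knockout) and 11.0 ± 1.85 CPM (labelled wild-type), a log2 change of -0.19. Bmf, a BH3-only gene, averaged 3.61 ± 1.19 CPM (labelled knockout) and 3.21 ± 0.75 CPM (labelled wild-type; SD, n = 3 each), a log2 change of 0.18. Bok and Bad passed without wild-type replicate 1, with log2 changes of -0.32 and -0.21. Bcl2a1a, Bcl2l12 and Bcl2l13 did not pass either (log2 changes 0.12, 0.06 and -0.09). Bcl2l12 shares 88 of 1976 exonic bases with Irf3, which had 2516 reads in all 6 libraries together, against 379 for Bcl2l12. Bik, Hrk, Bcl2l14 and Bcl2l15 had at most 2 reads in a library, and Bcl2a1c and Bcl2l10 had none, so no change in them was detectable at this depth.

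The death receptor route, which reaches mitochondria through Bid, had 3 of 9 tested genes higher and 2 lower (median log2 change 0.09). Over all genes tested, 21.6% were called higher and 19.2% lower. Tnfsf10, which encodes the ligand TRAIL, measured 23.2, 19.2 and 20.4 CPM in knockout-labelled libraries, against 5.40, 7.01 and 5.32 CPM in wild-type-labelled ones, the largest change among the 9 (log2 change 1.83; edgeR adjusted p = 1.33e-27). Its receptor gene Tnfrsf10b fell to 15.3, 14.6 and 15.2 CPM in knockout-labelled libraries, against 20.7, 23.1 and 20.1 CPM in wild-type-labelled ones (log2 change -0.50; edgeR adjusted p = 2.03e-06). Casp8, the caspase that cuts BID, rose to 108, 107 and 104 CPM in knockout-labelled libraries, against 84.3, 83.8 and 85.0 CPM in wild-type-labelled ones (log2 change 0.33; edgeR adjusted p = 4.22e-11). Fadd, the adaptor that brings caspase-8 to the receptor, fell by 0.30 on the log2 scale, and the TNF receptor gene Tnfrsf1a rose by 0.10, a call lost without knockout replicate 2 (0.08).

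After the pore opens, cytochrome c joins APAF1 and caspase-9 to form the apoptosome. Of 13 tested genes of these steps, 4 rose and 1 fell (median log2 change 0.06), beside 40.9% called over all genes tested. Apaf1 rose by 0.20, a call lost without wild-type replicate 2 (0.11), and Cycs, which encodes cytochrome c, by 0.14, a call lost without knockout replicate 3 (0.10). Diablo, an antagonist of caspase inhibitors, was called lower by 0.72 on the log2 scale at 26 to 61 reads per library. That call was lost without wild-type replicate 3 (-0.53). Diablo is also uncertain because 1193 of its 6166 exonic bases belong to Gm49027 too, a gene with 12 reads in all 6 libraries together.

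**Figure D5:**
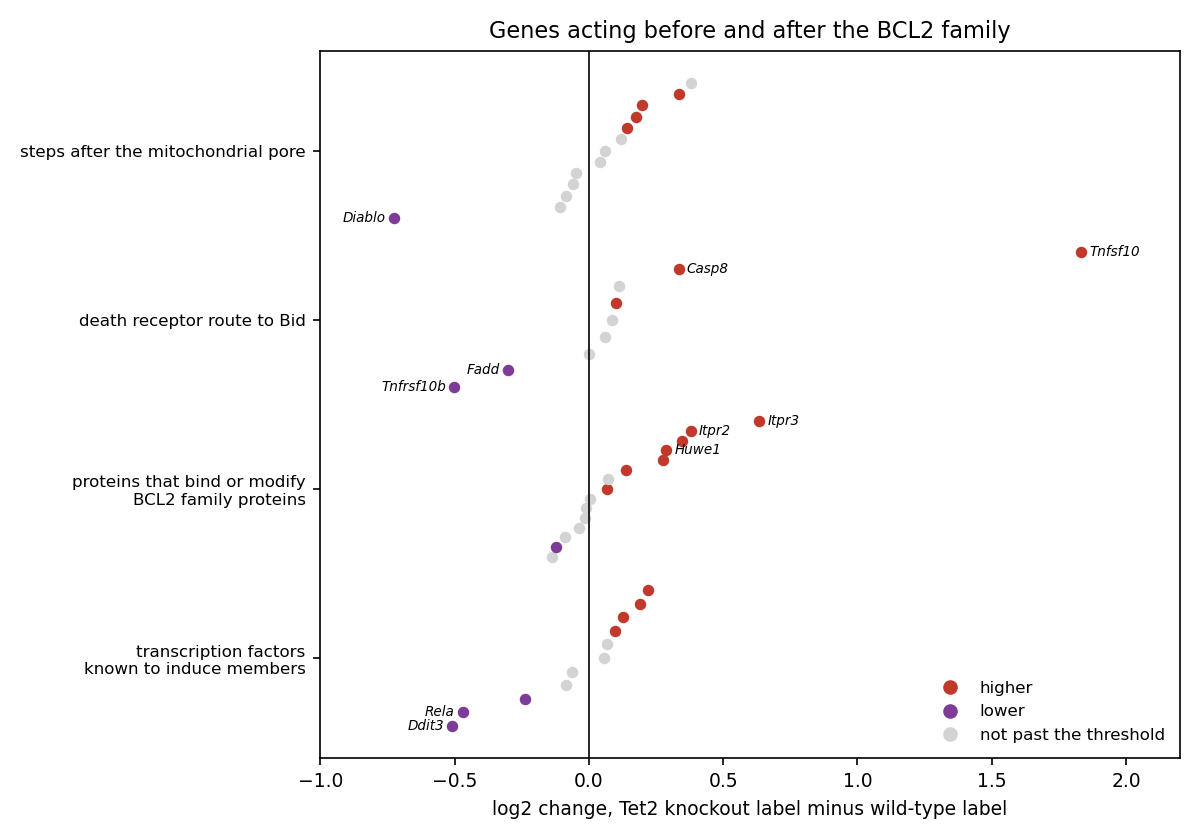
Log2 change, libraries labelled Tet2 knockout minus libraries labelled wild-type, of every tested gene in 4 lists around the family, 1 point per gene (some named), coloured by whether it passed an edgeR adjusted p of 0.05. Tnfsf10 stands alone at 1.83, and Diablo, Ddit3 and Tnfrsf10b lie at or below -0.50.

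Among genes whose proteins bind or modify BCL2 family proteins, 7 of 15 tested rose and 1 fell (median log2 change 0.07). The share called over all genes tested was 21.6% higher and 19.2% lower. Itpr3, a calcium channel of the endoplasmic reticulum of the kind that BCL2 binds, rose to 75.2, 73.2 and 78.3 CPM in knockout-labelled libraries, against 50.2, 45.1 and 50.3 CPM in wild-type-labelled ones (log2 change 0.63; edgeR adjusted p = 3.54e-20). Its relative Itpr2 rose by 0.38. Huwe1, a ubiquitin ligase that marks MCL1 for destruction, and Usp9x, an enzyme that removes such marks from MCL1, rose by 0.29 and 0.28 (edgeR adjusted p = 1.12e-14 and 2.33e-13). With GC content and length trends removed, these changes were 0.16 and 0.19 and still passed. Becn1, an autophagy gene whose product BCL2 holds, fell by 0.12, a call lost without knockout replicate 1 (-0.07) or wild-type replicate 3 (-0.11), with DESeq2 (-0.13) and with no filter on low counts (-0.13).

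Of 11 transcription factors known to induce members, 4 rose and 3 fell (median log2 change 0.06), beside 40.9% called over all genes tested. Ddit3, the stress factor CHOP, which can induce Bcl2l11, fell to 64.0, 61.9 and 66.4 CPM in knockout-labelled libraries, against 92.2, 91.8 and 89.5 CPM in wild-type-labelled ones (log2 change -0.51; edgeR adjusted p = 1.54e-17). Rela, an NF-kB subunit that can induce Bcl2l1 and Bcl2a1 genes, fell to 143, 149 and 150.2 CPM in knockout-labelled libraries, against 199, 206 and 208 CPM in wild-type-labelled ones (log2 change -0.47; edgeR adjusted p = 2.48e-23). Trp53, which encodes p53, fell by 0.24 (edgeR adjusted p = 2.71e-06). Stat5a rose by 0.22, Myc by 0.19, Foxo3 by 0.13 and Stat3 by 0.10. Stat5a shares 72 of 7133 exonic bases with Stat3, which had 15596 reads in all 6 libraries together, against 3162 for Stat5a. Ddit3 shares 68 of 1713 with Mars, which had 7078 reads, against 6317 for Ddit3. The calls on Myc and Foxo3 were lost without wild-type replicate 2 (log2 changes 0.14 and 0.06) and that on Stat3 without knockout replicate 3 (0.08), with GC content and length trends removed (0.05), with DESeq2 (0.09) or with upper-quartile scaling (0.08). That on Foxo3 was also lost with DESeq2 (0.13).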

How the data were processed

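Total RNA of 6 libraries was sequenced (3 labelled Tet2 knockout, 3 labelled wild-type), from Qiagen RNeasy columns and the NEBNext Ultra RNA kit, per the labels' protocols. The submitters' processing notes name fastp, STAR, featureCounts and the build mm10, but no versions. Deposited values were raw read counts per gene, made by the authors without normalization, and no source used here states the strand setting. Lengths in bases are the authors' deposited gene length column.

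Tests were run with edgeR 4.0.16 under R 4.3.3: filterByExpr (minimum count 10), TMM scaling and the robust quasi-likelihood test on the genotype label alone, with Benjamini-Hochberg adjustment over all 13175 genes tested and a threshold of 0.05. Standard errors are the log2 change divided by the root of the F statistic, and intervals are 95%. Levels are TMM-scaled CPM, or that per kilobase. The test was tried on counts simulated with the spread of these libraries, which cannot show whether that spread is technical. Alternatives were other scalings, filters and tests (DESeq2 1.42.0, limma-voom 3.58.1), a replicate block, an assumed biological coefficient of variation of 0.1, libraries left out, and, added after seeing the data, GC content and length trends removed. Start regions are from RefSeq (GRCm38.p6, the coordinates of mm10) and coding bases from GENCODE M21. All 10 members are named, all other family genes, and of each pathway list the 4 smallest p and any direction with 5 or fewer calls. Of the genes this rule names, 2 that are counted in their list are not reported here by name. Members, lists and tests were chosen with earlier results of these data known. Figures were drawn with matplotlib 3.10.9.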

Additional observations from a re-analysis of the deposited data

How the results depend on the processing

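Across the genome 5385 genes were called, and 1885 with an assumed spread of 0.1. Under that spread 1 member was called higher and 0 lower, in place of 4 and 1, and of the other genes named, Bcl2l2, Bnip3l, Apaf1, Cycs, Fadd, Tnfrsf1a, Huwe1, Usp9x, Becn1, Trp53, Stat5a, Foxo3, Stat3 and Myc were no longer called. The 4 members called higher were the same genes under every other alternative run. The count called lower ran from 0 (without wild-type replicate 2) to 2 (without wild-type replicate 3, with Bax added) over the libraries left out. Leaving out single libraries gave 4725 to 5177 calls across the genome.

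The Tet2 change (log2 0.20) did not pass with DESeq2 (0.19), with the assumed spread (0.20) or with GC content and length trends removed (0.10), nor without knockout replicate 2 (0.19) or wild-type replicate 2 (0.16), and ran from 0.16 to 0.23 over the libraries left out. The balance (log2 -0.07) was -0.12 without division by length, and from -0.09 to -0.06 over the libraries left out. It was -0.05 with the other pro-survival and pro-death genes of the family added. Uncalled changes that turned sign were Bcl2a1d (-0.067 with all copies added up, and -0.039 to 0.14 over the libraries left out), Bbc3 (-0.012 to 0.094), Bad (-0.21 to 0.019) and Bmf (-0.017 to 0.42). The causes were not tested.

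No sign of pairing by replicate number was seen, though this cannot show that the samples were not collected in pairs. Deviations from the group means correlated at 0.00365, -0.00646 and -0.0206 for equal numbers, and at -0.0145 to 0.0216 for unequal ones. With the replicate block 5259 genes were called, 4 members higher and 1 lower. Depth limits Bcl2 and Bcl2a1a, at 110 to 155 reads per library, whose 95% intervals reached log2 changes of 0.39 and 0.37, wider than the changes called in Bcl2l1, Bak1 and Bid.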
